A study of Danio rerio with 4 samples.

Results

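The peaks described here are broad H3K4me3 peaks of DN ventricles that ran across a gap between separate peaks of Ctrl ventricles. A DN peak was taken as bridging when it was under 3000 bp wide and overlapped at least 2 different Ctrl peaks by 1 bp or more, on chromosomes 1 to 25 without chromosome 4 from 27000000 on. There were 296 such peaks among the 34891 DN peaks listed. They were 0.899% of the 32917 DN peaks of the same width limit and chromosomes, and 3.07% of the 9652 of these that overlapped any Ctrl peak. The peaks were chosen by the measured positions and widths of both lists, so their number, gaps and reach are descriptions and were not tested.

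The study asked how inhibition of Brg1 in endothelial cells affects H3K4me3 in the regenerating heart. DN fish carried the transgene kdrl:CreER beside a switchable one, ubi:loxp-DsRed-STOP-loxp-DN-xBrg1. The kdrl promoter drives CreER in endothelial cells, where recombination turns on a dominant-negative Xenopus Brg1. Ctrl fish carried the switchable transgene alone. Adult fish of both groups received 4-HT (4-hydroxytamoxifen, which activates CreER) before the ventricle was amputated. The paper's results give 3 days of 4-HT before surgery, whereas its methods give a shorter bath with the resection 3 days later. Whole ventricles were taken at 7 days post-amputation (dpa), and each ChIP used a pool of about 25 hearts. There was 1 H3K4me3 library per group, so no difference given here has a replicate check. The recombined endothelial cells were only a part of the chromatin, and a change in each endothelial cell cannot be told apart from a change in the share of cell types.

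H3K4me3 is the trimethylation of lysine 4 on histone H3. In vertebrates it marks the nucleosomes around the start sites of active genes, and it is usually lowest over the nucleosome-depleted start site itself, so that 1 promoter can show marked nucleosomes on both sides of a dip. Brg1 is the ATPase of the SWI/SNF complex, which slides and evicts nucleosomes at promoters and enhancers. A pair of neighbouring peaks in a list can therefore lie at 1 promoter, at promoters that face away from each other, or at unrelated sites. Which of these applied to the regions below was not analysed here.

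Of the 296 bridging DN peaks, 295 overlapped 2 Ctrl peaks and 1 overlapped 3. Together they lay over 593 Ctrl peaks, none of them counted under more than 1 bridging peak, and 13 of these Ctrl peaks reached a further DN peak as well. The bridging DN peaks had a median width of 2163.5 bp (95% interval 2090 to 2282) and a range of 910 to 2992 bp. The stretch from the first to the last Ctrl edge under them had a median of 1870.5 bp (95% interval 1814 to 1936). The ratio of the DN width to that stretch had a median of 1.09. Set against the summed width of the Ctrl peaks alone, the DN peak was 2.0 times as wide at the median (95% interval 1.90 to 2.08). At the median the bridging peaks were only a little longer than the Ctrl cluster as a whole, and much of the added width lay within it. The rule bears on both, since each member spans a whole gap and is under 3000 bp wide. The DN peak exceeded the Ctrl stretch by a median of 182 bp, and by 498.5 bp among the 654 bridging DN peaks without the width limit.

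The summed length shows where the width of the bridging peaks lay, under the same limits of the rule. The 296 DN peaks covered 641953 bp. Of this, 285798 bp or 44.5% was also inside a Ctrl peak, 251092 bp or 39.1% was in the gaps between the bridged Ctrl peaks, and 105063 bp or 16.4% lay beyond the outer Ctrl edges. In 257 of the 296 peaks, or 86.8% (95% interval 82.4 to 90.5), the gap was longer than the part beyond both outer edges. In 126 peaks, or 42.6% (95% interval 36.9 to 48.4), the gap was longer than the part inside Ctrl peaks, whatever the part beyond the edges. The share of a DN peak outside Ctrl peaks had a median of 55.9% and ran between 23.2% and 84.7%.

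**Figure D1:**
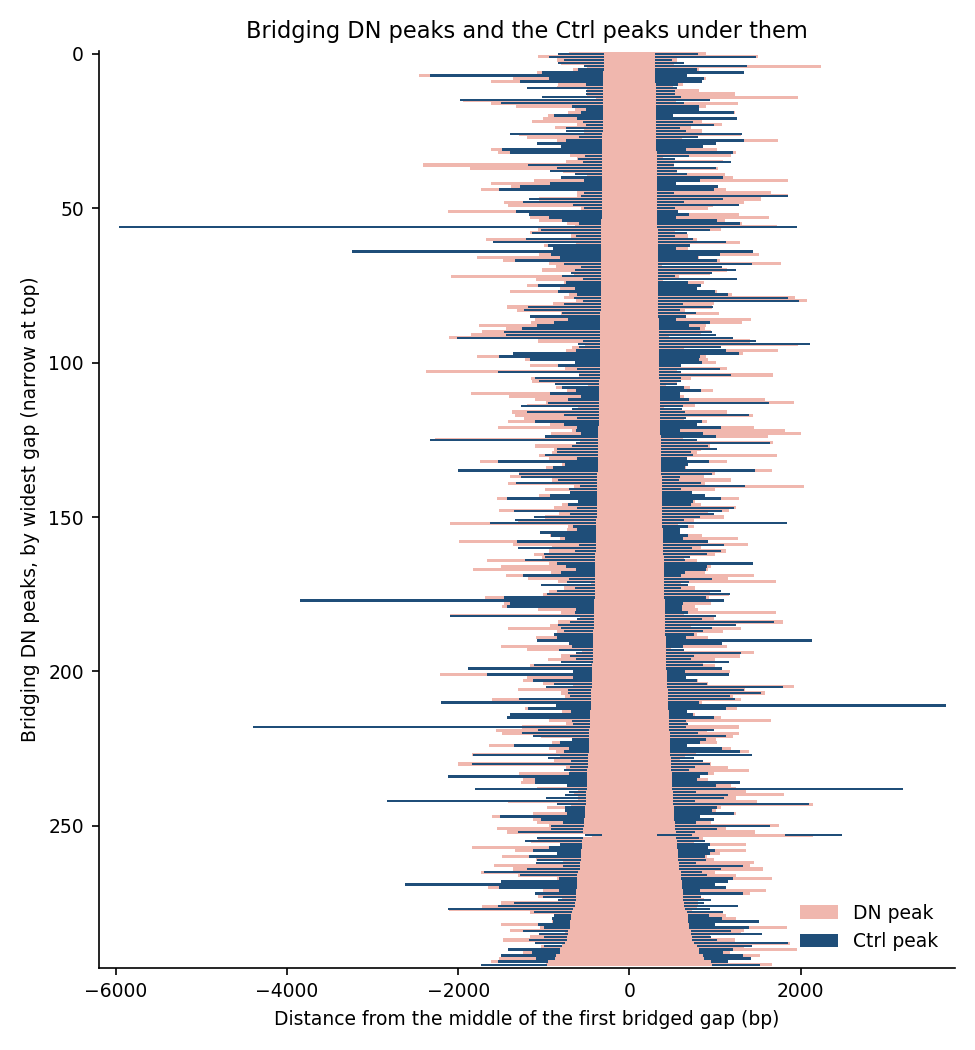
Each row is 1 of the 296 bridging DN peaks (pale red), with its Ctrl peaks drawn over it (blue), on an axis of distance in bp from the middle of the first bridged gap and ordered by the widest gap. The pale red band without blue in the middle is the gap, 601 bp at the top and 1935 bp at the bottom. Of the 592 outer edges, 221 lie within 100 bp of the Ctrl edge. At 28 edges, on either side, the Ctrl peak runs more than 500 bp past the DN peak.

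Gaps were short, with an upper bound set by the rule and a floor set by the lists. No neighbouring peaks lay closer than 601 bp in the DN list or in the Ctrl list, and the narrowest bridged gap was 601 bp. The widest gap under a bridging peak had a median of 762.5 bp (95% interval 736 to 802) and quartiles of 668 and 944.75 bp. It was at most 700 bp in 106 peaks and at most 1000 bp in 238, or 80.4% (95% interval 75.4 to 84.8), and it was over 1500 bp in 8. A bridged gap is under 3000 bp by the rule, since the DN peak spans it. All neighbouring Ctrl peaks, without a distance limit and with chromosome 4 whole, lay a median of 27118 bp apart. That median is therefore not comparable, and the Ctrl pairs up to 3000 bp apart are followed below. The width limit of 3000 bp bears on the upper end, since a wide gap leaves little room for the Ctrl peaks. DN peaks over wide gaps had fold values like those over narrow gaps. Here fold is the deposited enrichment over the genome-wide background, averaged over the peak. The median fold was 4.45 for gaps up to 700 bp, 4.35 for gaps over 700 and up to 1000 bp and 4.37 for the 58 peaks with a gap over 1000 bp. Spearman's rho between fold and gap was −0.02 over the 296 peaks, which all came from 1 library.

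The rule looks only at gaps that were bridged, so all neighbouring Ctrl peaks up to 3000 bp apart were also followed. There were 2875 such pairs, and a DN peak under 3000 bp bridged 297 of them, or 10.3% (95% interval 9.24 to 11.5). With DN peaks of any width it bridged 713, or 24.8% (95% interval 23.2 to 26.4). The share fell with the gap. Under DN peaks of any width, 183 of 320 pairs with gaps of 601 to 700 bp were bridged, or 57.2% (95% interval 51.6 to 62.7). For gaps of 801 to 1000 bp it was 167 of 405, or 41.2% (95% interval 36.4 to 46.2), for 1201 to 1500 bp 71 of 390, or 18.2% (95% interval 14.5 to 22.4), and for 2001 to 3000 bp 26 of 703, or 3.70% (95% interval 2.43 to 5.37). DN peaks were present at both Ctrl peaks of most pairs in each class. Both Ctrl peaks of a pair overlapped a DN peak in 76.3% of pairs in the narrowest class and in 57.0% of those in the widest, and among the pairs with both overlapped the bridged share was 75% in the narrowest class and 6.48% in the widest.

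The same rule with the lists exchanged gives the opposite kind of peak, a Ctrl peak that bridges several DN peaks. There were 82 of these, or 0.504% of the 16266 Ctrl peaks under 3000 bp on the same chromosomes and 0.744% of the 11023 that overlapped a DN peak, and each bridged 2 DN peaks. Their gaps were like those under bridging DN peaks, with a median of 761.5 bp (95% interval 691 to 831). Neighbouring DN pairs up to 3000 bp apart numbered 10792, and a Ctrl peak under 3000 bp bridged 82 of them, or 0.760% (95% interval 0.605 to 0.942). The Ctrl list is the shorter, and fewer DN pairs had a Ctrl peak at both ends. Taken only over pairs with both peaks overlapped, 1 DN peak of any width bridged 37.3% of 1909 Ctrl pairs, and 1 Ctrl peak of any width bridged 9.82% of 1466 DN pairs. Without the left-out part of chromosome 4, the bridging DN peaks outnumbered the bridging Ctrl peaks on each of the 25 chromosomes. These are counts without a share, and the DN list is the longer. All chromosomes come from the same pair of libraries and are no replicates. Filters on the lists bear on which kind of bridging peak was the more frequent. A −log10 q of at least 4 was listed for 10.4% of the 16466 Ctrl peaks of any width on these chromosomes. It was listed for 18.9% of the 32917 DN peaks under 3000 bp, so these shares are of unlike sets. With both lists held to that value at all widths, only 147 Ctrl pairs up to 3000 bp apart remained, with 1 bridging DN peak and 7 bridging Ctrl peaks. With the DN list shortened to as many peaks as the Ctrl list, there were 278 and 37.

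**Figure D2:**
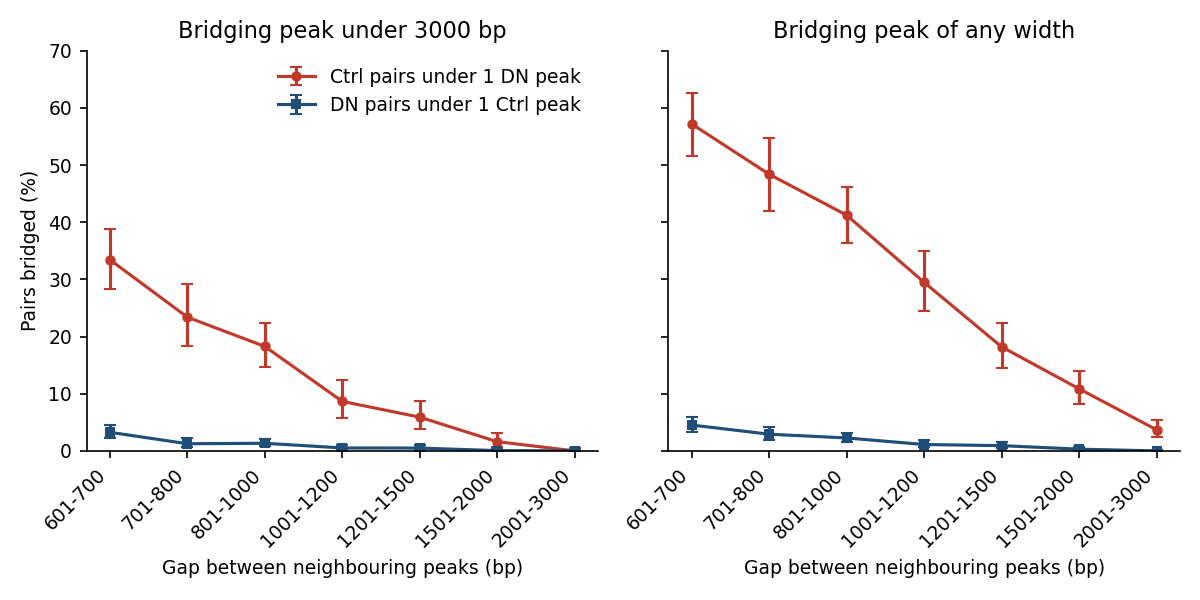
The share of neighbouring Ctrl pairs that 1 DN peak bridged (red circles) and of neighbouring DN pairs that 1 Ctrl peak bridged (blue squares) is plotted against the gap in bp, for bridging peaks under 3000 bp (left) and of any width (right), with exact 95% intervals as bars. For bridging peaks of any width the red share is 57.2% at gaps of 601 to 700 bp and 3.70% at 2001 to 3000 bp, and the blue share is 4.52% in the first of these classes.

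The bridged Ctrl pairs were then set beside the other Ctrl pairs with gaps of 601 to 1000 bp. In 239 of these pairs, or 24.6%, the DN list had 1 peak under 3000 bp over both, in 231 it had 1 wider peak over both, in 266 it had separate peaks, in 169 it had a peak at 1 of the pair, and in 68 it had none. The Ctrl fold of the pairs bridged by a peak under 3000 bp was not the highest of these classes. Their weaker peak had a median Ctrl fold of 3.45 and their stronger peak 4.10. Pairs that kept separate DN peaks had 3.70 and 4.39, and pairs with no DN peak 3.29 and 3.64. Pairs under 1 DN peak of less than 3000 bp were also narrower than pairs with separate DN peaks. Median widths of the narrower and the wider peak were 299 and 706 bp, against 457 and 1166.5 bp. They were not the narrowest class, since pairs with no DN peak had 286 and 627 bp. Pairs with a DN peak at 1 of the pair had 286 and 900 bp. The limit on the DN width favours narrow Ctrl peaks, and pairs under a wider DN peak had 558 and 1357 bp.

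At their outer edges, DN peaks mostly reached further than the Ctrl peaks, but not at all edges. The DN peak ran beyond the Ctrl cluster at both ends in 140 cases, or 47.3% (95% interval 41.5 to 53.2), at 1 end in 124, or 41.9% (95% interval 36.2 to 47.7), and at neither end in 32, or 10.8% (95% interval 7.51 to 14.9). Of the 592 outer edges, DN lay further out at 404, or 68.2% (95% interval 64.3 to 72.0), with a median of 140 bp beyond, and short of the Ctrl edge at 186, with a median of 139 bp short. The other 2 edges coincided to the bp. At 221 edges, or 37.3% (95% interval 33.4 to 41.4), both lists ended within 100 bp of each other. DN ran more than 500 bp beyond at 70 edges and stopped more than 500 bp short at 28. Summed over both ends, with a shortfall counted as negative, the reach had a median of 182 bp (95% interval 138 to 251) and ran between −5558 and 1615 bp. The bridging peaks enclosed 407 of the 593 Ctrl peaks entirely, or 68.6% (95% interval 64.7 to 72.4).

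The groups by reach are set by the DN width and the Ctrl stretch, so their values are a description. Where DN reached beyond neither end, the Ctrl stretch had a median of 2627 bp (95% interval 1778 to 2996), against 1827.5 bp where DN reached beyond both ends (95% interval 1708 to 1888). The median gap was 816.5 bp (95% interval 686 to 960) in the first group and 750 bp (95% interval 714 to 794) in the second. Median fold was 4.02 (95% interval 3.47 to 4.61) and 4.42 (95% interval 4.27 to 4.68). The intervals overlap for all 3 measures. In the exchanged rule the ends behaved otherwise. The Ctrl peaks that bridged DN peaks stopped short of the outer DN edges, with a median net reach of −571 bp (95% interval −839 to −353).

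DN peaks with exactly 1 Ctrl peak, of which 9356 met the same limits, were the nearest comparison. Their DN peak reached beyond both Ctrl ends in 60.5% (95% interval 59.5 to 61.5), more often than the 47.3% of bridging peaks. They were narrower, with a median of 1034 bp, so the comparison was repeated within classes of DN width. Among DN peaks of 2000 to under 2500 bp, the net reach had a median of 251 bp for the 93 bridging peaks and 1242 bp for the 819 with 1 Ctrl peak. In the class from 2500 to under 3000 bp the values were 370 bp and 1549.5 bp. Net reach is the DN width less the Ctrl stretch. At a given DN width, the gap and the second Ctrl peak lower it in bridging peaks by definition. The part of the DN peak inside Ctrl peaks differed by class. From 1000 to under 1500 bp its median was 35.0% for the 32 bridging peaks and 50.3% for the 2123 peaks with 1 Ctrl peak. It was 44.8% and 45.3% in the class from 1500 bp, 47.2% and 42.8% from 2000 bp, and 44.4% and 42.2% from 2500 bp. By the definition of each group, the part outside Ctrl peaks lay partly in the gap in bridging peaks and beyond the edges in peaks with 1 Ctrl peak. Bridging peaks made up a growing part of the wider DN peaks, with 0.805% of those of 1000 to under 1500 bp, 3.74% from 1500 bp, 8.24% from 2000 bp and 13.7% from 2500 bp. A wider DN peak has more room for several Ctrl peaks and their gap, so the rule itself favours this rise. Only 1 of them was narrower than 1000 bp.

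**Figure D3:**
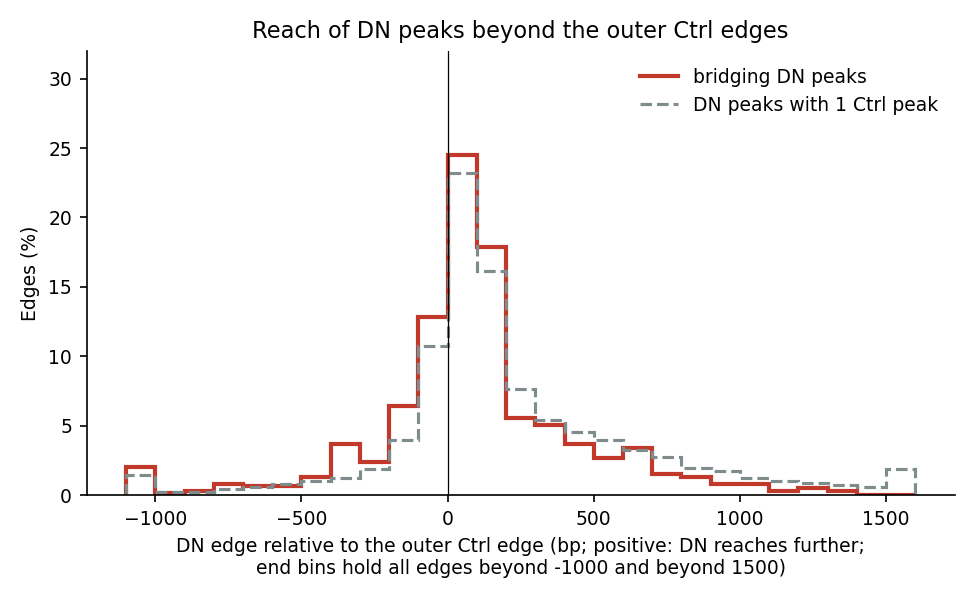
The distance of DN edges from the outer Ctrl edges is plotted in bins of 100 bp, as a percent of 592 edges of bridging DN peaks (red) and of 18712 edges of DN peaks with 1 Ctrl peak (grey, dashed), with positive values where DN reached further. Both have their highest bin just above 0 bp, and DN reached further at 68.2% of the edges of bridging peaks and at 76.7% of the others.

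Bridging DN peaks ranked high in the DN list. Their fold ran between 2.99 and 8.33 with a median of 4.40 (95% interval 4.28 to 4.53), against 4.29 (95% interval 4.25 to 4.33) for DN peaks with 1 Ctrl peak and 3.15 (95% interval 3.14 to 3.15) for those with none. By −log10 q, 280 of the 296, or 94.6%, were in the stronger 50% of the DN list, and the median percentile was 83.3. A −log10 q of at least 4 was listed for 179 of them, or 60.5% (95% interval 54.7 to 66.1), against 51.9% of DN peaks with 1 Ctrl peak and 18.9% of all DN peaks under the same limits. Within classes of width the order was the other way. At 1000 to under 1500 bp the median fold was 4.07 for the 32 bridging peaks and 4.51 for peaks with 1 Ctrl peak, and at 2500 to under 3000 bp it was 4.39 and 4.66. From 2000 to under 2500 bp the medians were 4.62 and 4.65. The quartile ranges overlapped in each class. DN peaks with no Ctrl peak stayed lower in each class, with a median fold of 3.27 to 3.55.

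**Figure D4:**
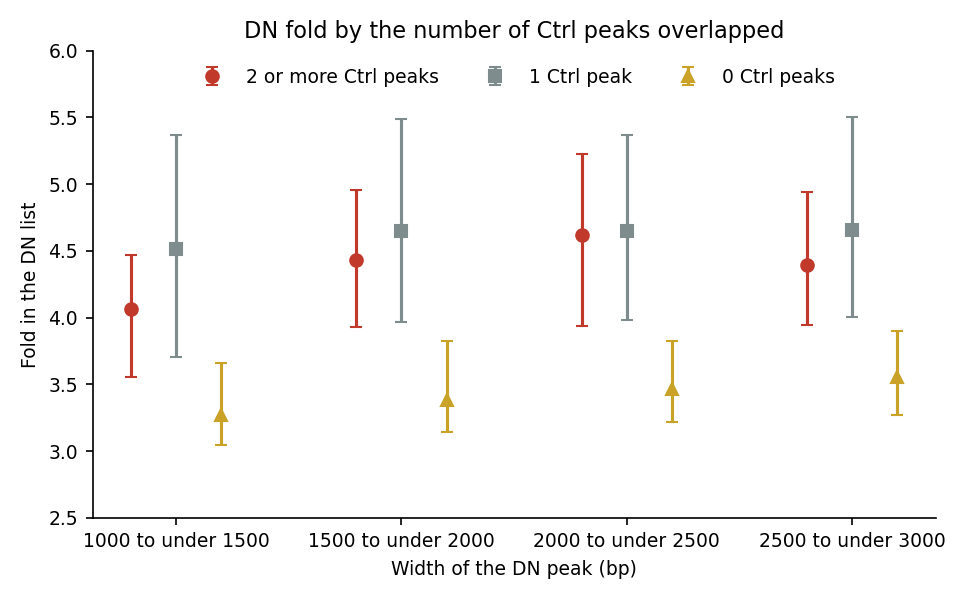
Median fold in the DN list, with quartiles as bars, is plotted for 4 classes of DN peak width in bp, for DN peaks over 2 or more Ctrl peaks (red circles), 1 Ctrl peak (grey squares) and 0 Ctrl peaks (yellow triangles). Bridging peaks have medians of 4.07, 4.43, 4.62 and 4.39, each below the peaks with 1 Ctrl peak and above those with 0.

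The bridged Ctrl peaks were of middle rank in their own list. They had a median width of 462 bp (95% interval 426 to 487), against 562.5 bp for Ctrl peaks under a DN peak that overlapped no other and 360 bp for Ctrl peaks without a DN peak. Their median fold in the Ctrl list was 3.70 (95% interval 3.64 to 3.77), between 3.80 and 3.38 for these 2 groups. A −log10 q of at least 4 was listed for 53 of the 593, or 8.94% (95% interval 6.77 to 11.5), beside 10.4% of all Ctrl peaks on these chromosomes. The stronger Ctrl partner of a DN peak had a median percentile of 73.3 in the Ctrl list, and the weaker 33.9. Partners were ordered by fold here and by width in what follows, so some difference between them comes from the ordering. It was not set against Ctrl peaks taken without regard to pairing. The wider partner was 1.86 times as wide as the narrower at the median. In 165 cases, or 55.7% (95% interval 49.9 to 61.5), the stronger was at least as wide as the weaker, and this interval includes 50%. DN fold went with the fold of the stronger Ctrl partner, with a Spearman's rho of 0.55 over 296 peaks, which share the same pair of libraries.

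Percentiles were taken within each list, and the lists differ in length and make-up. The DN list holds 23265 peaks without a Ctrl peak under the same limits, with a median percentile of 37.4, and shared peaks stand above these. For DN peaks with 1 Ctrl peak the median DN percentile was 80.9, and the Ctrl peaks under them had a median Ctrl percentile of 60.5. A DN percentile above the Ctrl percentile was thus also seen in peaks with 1 Ctrl peak. Among the bridging peaks, the 83 whose Ctrl partners were both in the stronger 50% of the Ctrl list had a median fold of 4.83 (95% interval 4.51 to 5.01) and a median gap of 752 bp. The 56 whose partners were both in the weaker 50% had a median fold of 3.93 (95% interval 3.65 to 4.03) and a median gap of 779 bp.

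**Figure D5:**
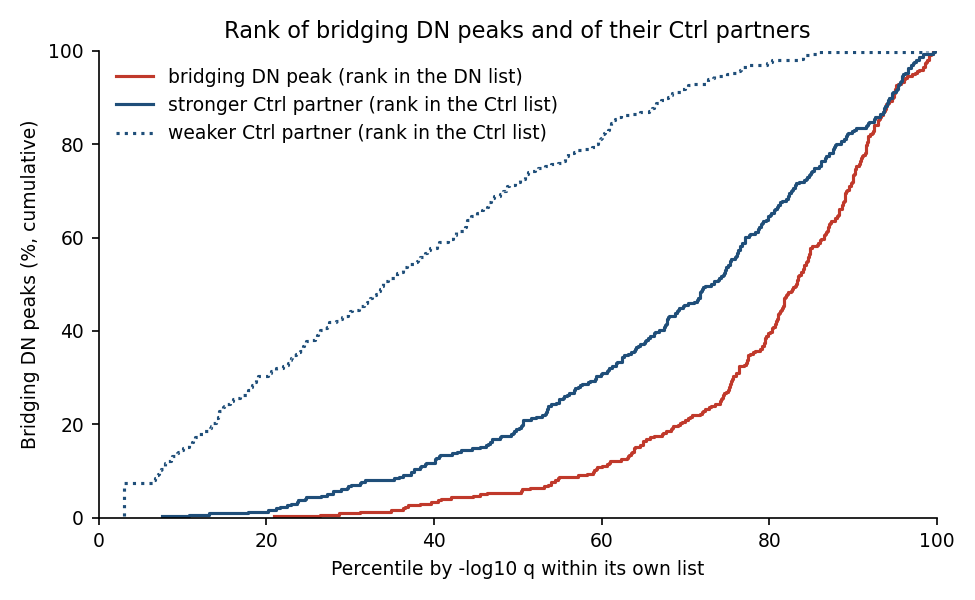
The cumulative percent of the 296 bridging DN peaks is plotted against percentile by −log10 q, for the DN peak within the DN list (red) and for its stronger (blue) and weaker (blue, dotted) Ctrl partner within the Ctrl list. The medians are 83.3 for DN peaks, 73.3 for stronger partners and 33.9 for weaker partners, and the DN and Ctrl curves are not on a common scale, since the lists hold 34891 and 17234 peaks. Partners were ordered by fold, so some distance between their curves comes from that ordering.

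Single regions show the range of forms. At chr7:71353776-71356041 the DN peak had a −log10 q of 15.9, the highest among bridging peaks, and a fold of 7.68. Its Ctrl peaks, 697 bp apart, had folds of 4.47 (71353774 to 71354010) and 14.3 (71354708 to 71355542). The low-coordinate edges of both lists lay 2 bp apart, and DN ran 499 bp further at the other end. This is a strong Ctrl peak with a small companion of 237 bp, joined in DN. The next, also on chromosome 7, from 26624553 to 26627257, had a fold of 8.33 in DN over Ctrl peaks of 3.90 and 6.04 that were 674 bp apart, and reached 113 and 88 bp beyond them. On chromosome 17 a DN peak from 26753999 to 26756137 with a fold of 7.61 lay over Ctrl peaks of 5.41 and 3.84 with a gap of 693 bp, and reached 60 and 101 bp beyond them. In these 3 regions the gap exceeded the reach at either end.

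The only DN peak over 3 Ctrl peaks was a weak one. It lay on chromosome 14 from 26776656 to 26779237, with a fold of 3.13 and a percentile of 36.6. Its Ctrl peaks had folds of 3.31, 3.15 and 3.38 and gaps of 635 and 1090 bp, and it stopped 82 and 332 bp short of their outer edges. The second of them was at the lowest fold of the Ctrl list.

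The widest gap, 1935 bp, was on chromosome 22 under a DN peak from 1638648 to 1641281 with a fold of 3.69. That call rested on an overlap of 6 bp with the first Ctrl peak, which ran 759 bp further out. The gap of 1907 bp on chromosome 9 was covered more fully, by a DN peak from 25096517 to 25099278 with a fold of 5.70, which overlapped the smaller Ctrl peak by 194 bp and ended 74 bp beyond the Ctrl cluster on 1 side and 6 bp short of it on the other. Both of its Ctrl peaks were modest, at 3.95 and 3.83. The third, of 1750 bp, was on chromosome 6 under a DN peak from 39658157 to 39660923 with a fold of 3.93. At the other extreme, gaps of 601 and 602 bp lay under the DN peaks chr8:1265615-1267223 with a fold of 5.28, chr6:16492565-16495132 with 4.27 and chr8:34584708-34586099 with 3.67. Neighbouring Ctrl peaks any closer would not have been listed apart.

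Reach took its extremes at narrow Ctrl peaks on 1 side and at long Ctrl peaks on the other. The longest net reach was 1615 bp, on chromosome 20 from 51730189 to 51733157, where a DN peak of 2969 bp with a fold of 4.13 lay over Ctrl peaks of 205 and 505 bp and ran 585 and 1030 bp beyond them. At chr5:47974681-47977596 the net reach was 1493 bp with a fold of 4.57, and at chr15:24588316-24590960 it was 1347 bp with a fold of 3.45, where both Ctrl peaks were at most 244 bp wide. The shortest was −5558 bp, on chromosome 13 from 15862486 to 15864842, where a DN peak with a fold of 3.14 joined Ctrl peaks of 5635 and 1625 bp but covered only the end of the first. Similar cases were chr3:56737792-56740118 with a net reach of −2665 bp and a fold of 3.04, and chr22:137516-139476 with −2601 bp and 3.05. In these 3 regions the DN peak was shorter than the Ctrl stretch from first to last edge, although it bridged a gap.

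The limits of the rule passed through a continuous range. Just under 3000 bp were 2 DN peaks of 2992 bp, chr8:385772-388763 with a fold of 4.61 and a gap of 849 bp, and chr18:43881385-43884376 with 4.85 and 724 bp. Just over it were a peak of 3003 bp, chr22:1690962-1693964 with 3.40 and 1473 bp, and 1 of 3005 bp, chr16:48427227-48430231 with 4.98 and 1362 bp. Outside the part of chromosome 4 left out, 358 DN peaks of 3000 bp or more also bridged Ctrl peaks. They had a median width of 4205.5 bp, and 55 of them lay over 3 or more Ctrl peaks, the most being 5. The smallest overlap that made a peak a member was 4 bp, on chromosome 23 from 4222531 to 4223715, and 29 of the 296 had an overlap of at most 100 bp with 1 of their Ctrl peaks. On the other side, 12 times a DN peak with 1 Ctrl peak missed a second by at most 100 bp, the closest by 17 bp.

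Bridging DN peaks were found on all 25 chromosomes, between 6 and 28 on each. Chromosome 22 had the most, 28 of its 450 DN peaks with a Ctrl peak, or 6.22% (95% interval 4.17 to 8.87). The other chromosomes together had 2.91% (95% interval 2.58 to 3.28), with 1.87% on chromosome 21 (95% interval 0.75 to 3.81) as the lowest share. Chromosome 22 was picked as the highest of the 25, so some of its distance from the others comes from that choice. On chromosome 22, 11 of the 28 lay within 2 Mb of the low-coordinate end. There 11 of 115 DN peaks with a Ctrl peak were bridging, or 9.57% (95% interval 4.87 to 16.5). In the rest of the chromosome it was 17 of 335, or 5.07% (95% interval 2.98 to 8.0). The intervals overlap, and the difference was not tested. Over all chromosomes, 32 of the 296 bridging peaks, or 10.8% (95% interval 7.51 to 14.9), lay within 2 Mb of the low-coordinate end, against 6.82% of DN peaks with 1 Ctrl peak (95% interval 6.32 to 7.35). Chromosome 22 alone gave 11 of these 32, and the share without that chromosome was not calculated. The higher share is thus not shown for the other chromosomes, and only the low-coordinate end was counted. Among the bridging peaks, 2 neighbouring pairs lay within 10 kb, the closest 988 bp apart, and this count was not set against other DN peaks. The nearest other DN peak lay at a median of 1739.5 bp (95% interval 1462 to 1994), and at 1920 bp (95% interval 1815 to 2046) for DN peaks of 1500 bp or more with 1 Ctrl peak.

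Values of the lists themselves move with these results. The lowest fold was 2.87 in the DN list and 3.15 in the Ctrl list, each averaged over a peak and relative to the background of its own library. The 2 minima are thus not on a common scale. Of the 296 bridging peaks, 8 had a mean fold under the lowest Ctrl fold, and 288 remained without them. The share of all DN peaks under that fold was not calculated. DN peaks with no Ctrl peak had a median fold of 3.148, close to the lowest Ctrl fold of 3.146, so low folds were common among those. Since fold is an average over the whole peak, the lists do not give the enrichment within a gap. Whether the difference in lowest fold played a part in joining the peaks was not tested.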

How the data were processed

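Both H3K4me3 libraries were analysed from 1 deposited peak list each, and the input libraries were not used here. The authors trimmed read pairs with Trimmomatic 0.39, aligned them to GRCz11 with STAR 2.7.8a keeping unique alignments, removed duplicates with Picard 2.25.0, drew the same number of read pairs per condition and called broad peaks with MACS2 without a local background, at a stated q of 0.0001. Tool versions are those of the submitters' processing notes, and whether input entered the calls is not given in the sources used here. A −log10 q of at least 4 was listed for 18.9% of the DN peaks under 3000 bp and 10.4% of the Ctrl peaks of any width. Fold, as deposited, is a ratio over the genome-wide background, and the deposited values of significance are −log10 p and −log10 q, all averaged over a region. The score deposited by the authors is 10 times the −log10 q and was not used. The lists hold no read counts, so the depth behind a peak is unknown.

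Peaks on chromosomes 1 to 25 were kept, chromosome 4 from 27000000 on was left out, and positions are 1-based. Overlaps of at least 1 bp were taken with numpy 2.4.6, scipy 1.17.1 and pandas 2.3.3 under Python 3.11.15, and drawn with matplotlib 3.10.9. The number of Ctrl peaks under each DN peak was the same with bedtools 2.31.1 for 34889 of 34889 DN peaks. On simulated lists, 100% of 200 bridging peaks were recovered with the right gap and reach. The simulated sites were well-separated pairs of Ctrl peaks with short gaps, so this checks the overlap calculation alone. It does not bear on the peak calls or on overlaps of a few bp. Shares carry exact (Clopper-Pearson) 95% intervals and medians exact order-statistic 95% intervals. These intervals hold counting error alone, as peaks of 1 library are no replicates, and no test between conditions was made with 1 library per group. The rule for single regions took the 3 members that bridged the most Ctrl peaks and the 3 at each extreme of −log10 q (highest), gap and reach, with the 2 on each side of the width limit. The members and this rule were chosen with earlier results of these data known. Genes, start sites and sequence were not analysed here, since no GRCz11 annotation or genome was used.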

Additional observations from a re-analysis of the deposited data

How the results depend on the processing

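No paired analysis was possible because DN and Ctrl have a single library each, which also leaves no replicate to omit. A count is taken as changed past 1.5 times, and a share or median outside its 95% counting interval. Of 72 values under 9 alternatives, 31 did not change, 40 did and 1 reversed. Keeping chromosome 4 whole changed none of the 8 results. The share of DN peaks over 3 Ctrl peaks rests on 1 peak, and it was 0% under the 7 alternatives other than chromosome 4 kept whole and no width limit. With both lists at a −log10 q of at least 4, 1 bridging DN peak and 7 bridging Ctrl peaks were left, with a gap of 989 bp, 52.7% outside Ctrl peaks, a fold of 7.37, 0.68% of Ctrl pairs bridged and the reach reversed to −1072 bp. Requiring 50% of each bridged peak inside gave a reach of 278 bp, 34 bridging Ctrl peaks and 8.03% of pairs. With the DN list shortened, 37 Ctrl peaks bridged. Without a width limit there were 654 bridging DN and 130 bridging Ctrl peaks, 8.56% over 3 or more Ctrl peaks, a gap of 859.5 bp, a reach of 498.5 bp and 24.8% of pairs. With Ctrl peaks under 1000 bp apart merged there were 58 bridging DN peaks and 212 bridging Ctrl peaks, a gap of 1215.5 bp, 65.4% outside, a reach of 89.5 bp and 3.05% of pairs. That order follows from merging 1 list only. The alternatives chosen after seeing the data were a DN fold of at least the lowest Ctrl fold, both lists merged and the stronger 50% of each list. With both lists merged the values were 116 DN and 39 Ctrl peaks, a gap of 1212.5 bp, 65.9% outside, a reach of 116.5 bp, a fold of 4.65 and 6.10% of pairs. In the stronger 50% of each list they were 78 DN and 30 Ctrl peaks, a fold of 4.84 and 8.81% of pairs. Longer gaps follow from merging. For the other changes the cause was not tested.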

Other observations

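In the part of chromosome 4 left out, from 27000000 on, 7 DN peaks under 3000 bp bridged Ctrl peaks and 10 Ctrl peaks bridged DN peaks. On the rest of the chromosomes the numbers were 296 and 82. Shares of the DN and Ctrl peaks of the left-out part were not calculated, so its counts have no background. With chromosome 4 kept whole, DN peaks under 3000 bp bridged 9.91% of 3068 Ctrl pairs up to 3000 bp apart, against 10.3% of 2875 without that part. The difference was not tested.

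Where both Ctrl peaks of a pair up to 3000 bp apart overlapped DN peaks that stayed separate, in 1196 pairs, the facing DN peaks were closer together than the Ctrl peaks. Their median gap was 1202.5 bp (95% interval 1147 to 1259) in DN and 1529.5 bp (95% interval 1472 to 1587) in Ctrl. Both lists have the same shortest gap of 601 bp. Wider DN peaks were not particular to these pairs. DN peaks under 3000 bp with 1 Ctrl peak exceeded its width by a median of 350 bp (95% interval 335 to 363). Further DN peaks between the facing ones were not looked for.

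The strongest Ctrl peak that bridged DN peaks, chosen after its values were seen, was on chromosome 5 from 47801434 to 47803455. The DN peaks under it had folds of 15.6 and 5.05 in the DN list and lay 1078 bp apart, and the Ctrl peak had a fold of 15.3 in the Ctrl list and ran 47 and 66 bp beyond them.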
